A study of Mus musculus with 9 samples.

Results

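The clustered protocadherins are cadherin-related cell surface proteins encoded by 3 gene clusters that lie one after the other on mouse chromosome 18, named alpha, beta and gamma. They were taken here as every row of the count table whose symbol begins with Pcdha, Pcdhb or Pcdhg, with each gene identifier kept as a gene of its own. This gave 58 genes of the 55247 in the table, made up of 12 variable alpha isoforms, 22 beta isoforms, 12 gamma isoforms of the A kind, 7 of the B kind and 5 C-type isoforms. Whole dorsal root ganglia (DRG), which hold the cell bodies of somatosensory neurons, were taken from E18.5 mouse embryos for RNA sequencing, with 3 libraries for each of 3 genotypes. WT embryos carried no modified allele. In Isl1Cre/+ embryos the gene for Cre stood in place of 1 Isl1 copy. The third genotype, Isl1Cre/+::Meis2LoxP/LoxP (mutant hereafter), had this allele and LoxP sites on both chromosomes around the Meis2 exon where the DNA-binding homeodomain begins. Isl1 drives Cre in sensory neurons once they have left the cell cycle, while Meis2 encodes a transcription factor present in only part of them, and whole ganglia also hold glia and other cells. Both Cre genotypes also lack 1 normal copy of Isl1, and only the comparison of mutant with Isl1Cre/+ is free of that difference.

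In the alpha and gamma clusters, each isoform has its own promoter and its own large first exon. This exon codes for the extracellular cadherin repeats and the membrane span, and is spliced to constant exons that code for a common intracellular end. The beta genes have a single exon and no constant part. In neurons, each cell uses a small and largely random set of the variable promoters, a choice that involves the DNA-binding protein CTCF, cohesin and DNA methylation, whereas the C-type isoforms at the 3′ end of the alpha and gamma clusters are used more uniformly. The proteins bind the same isoforms on neighbouring membranes, and the combination is known for its part in self-avoidance of neurites and in neuron survival.

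Reads on the constant exons could not be given to 1 isoform, and did not enter the counts. In the GENCODE M21 annotation of GRCm38, the 14 alpha genes share 3 constant exons of 59, 89 and 2712 bases and the 22 gamma genes share 3 of 59, 89 and 1968 bases. The 4 genes of the locus on the same strand that have no base of their own, of which 3 are models that run from the alpha into the gamma cluster and 1 lies at the gamma constant exons, had 0 counts in all 9 libraries. The counts below are therefore mostly reads on the first exon of each alpha or gamma isoform and on the whole exon of each beta gene. The 58 genes lie on the forward strand between positions 36930184 and 37841873 of chromosome 18 (GRCm38). Of 9 annotated genes on the reverse strand that overlap an exon of a clustered protocadherin, none reached 100 counts and the highest count of any was 74. All 2613 bases of the own exon of Pcdhga10 lie opposite 1 such gene, Gm26672, and Pcdhga10 still had 389 to 563 counts, which shows that the counting used strand. Pcdha4 is a special case, because a read-through model on its own strand covers its first exon and leaves 494 of 5768 exonic bases, so its 6 to 22 counts are not a measure of its transcription. The symbol Pcdha11 stands on 2 identifiers, ENSMUSG00000007440.10 and ENSMUSG00000102206.5, and the RefSeq gene that begins nearest to the first of them is Pcdha10. They are told apart below by identifier, and in the plots by its last digits.

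The libraries held 23854607 to 29103444 counts, and the clustered protocadherins took between 0.0627% and 0.0775% of them, or 17251 to 21730 counts per library. Meis2 fell from 95.4 to 110 cpm (counts scaled to library size) in the WT libraries and from 89.5 to 102 cpm in the Isl1Cre/+ libraries to 40.8, 40.8 and 41.2 cpm in the mutant. The log2 fold change was -1.23 against Isl1Cre/+ (adjusted p = 0.00215, edgeR) and -1.33 against WT (adjusted p = 0.00779). The 3 WT libraries had 227 to 284 cpm of Isl1, the Isl1Cre/+ libraries 165 to 202 and the mutant libraries 170 to 216. WT replicate 1 and mutant replicate 2 stood apart from the rest, with median rank correlations of 0.981 and 0.979 with the other libraries against 0.991 to 0.995 for the remaining 7. All sensory neuron markers examined were present in every library. The sum of 6 red cell markers was 343 to 981 cpm in Isl1Cre/+, 896 to 2135 in WT and 1210 to 3966 in mutant libraries, and that of 6 skeletal muscle markers was 45.9 to 129, 89.1 to 651 and 103 to 1433 cpm in the same order. All 6 red cell and 5 of 5 tested muscle markers met the criterion described below as lower in Isl1Cre/+ than in WT and as higher in mutant than in Isl1Cre/+, and 2 of 4 tested cartilage markers did the same in each comparison. Endothelial markers went the other way, with sums of 252 to 266 cpm in WT, 279 to 373 in Isl1Cre/+ and 210 to 327 in mutant libraries. All 4 endothelial markers were higher in Isl1Cre/+ than in WT (median log2 fold change 0.28, 2 meeting the criterion) and lower in the mutant than in Isl1Cre/+ (median -0.18, 1 meeting it), which are the directions of most clustered protocadherins in the same comparisons. None of 12 sensory neuron, 7 glial, 5 fibroblast or 3 tested macrophage markers met the criterion with edgeR. In mutant vs Isl1Cre/+, 10 of 12 sensory neuron and 5 of 7 glial markers were lower, with median log2 fold changes of -0.05 and -0.08, where 49.8% of all tested genes were lower. The part of these cells in the results was not tested. The Y-linked gene Ddx3y was read at 93.9 and 106 cpm in WT replicates 1 and 2 and at 112 cpm in mutant replicate 1, and at 0 in the other 6 libraries, which had 315 to 486 cpm of Xist. All 3 Isl1Cre/+ libraries were among these 6, and Ddx3y was read in 2 WT libraries but in 1 mutant library. Sex and genotype were therefore partly mixed in all 3 comparisons, and the part of sex was not tested. Spinal cord markers summed to at most 6.06 cpm. In these whole ganglia, fewer cells of a type and less RNA per cell cannot be told apart.

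The C-type isoforms were at both ends of the range of levels in WT DRG. Levels of different genes were compared as cpm per kb of exon that no other gene on the strand shares. Pcdhac2 was the highest of all 58 genes, at 29.8 ± 1.66 cpm per kb (SD, n = 3), followed by Pcdhgc3 at 22.6 ± 0.859. Pcdhac1, the first C-type isoform of the alpha cluster, was in position 4 at 10.7 ± 0.638. Pcdhgc4, which among the gamma isoforms is the one known to be needed for the survival of many neurons, was at 2.24 ± 0.220, in position 34 of 58. Pcdhgc5 was at 0.141 ± 0.0384, with 13 to 28 counts in a library, below every gene except Pcdhb1. Pcdhac2 and Pcdhgc3 together held 21.3% to 25.5% of all clustered protocadherin counts in the 9 libraries. Within its own cluster, Pcdhac2 took 40.9% ± 4.12 of the alpha counts in WT, 40.4% ± 0.763 in Isl1Cre/+ and 40.5% ± 1.95 in mutant libraries (SD, n = 3 each).

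**Figure D1:**
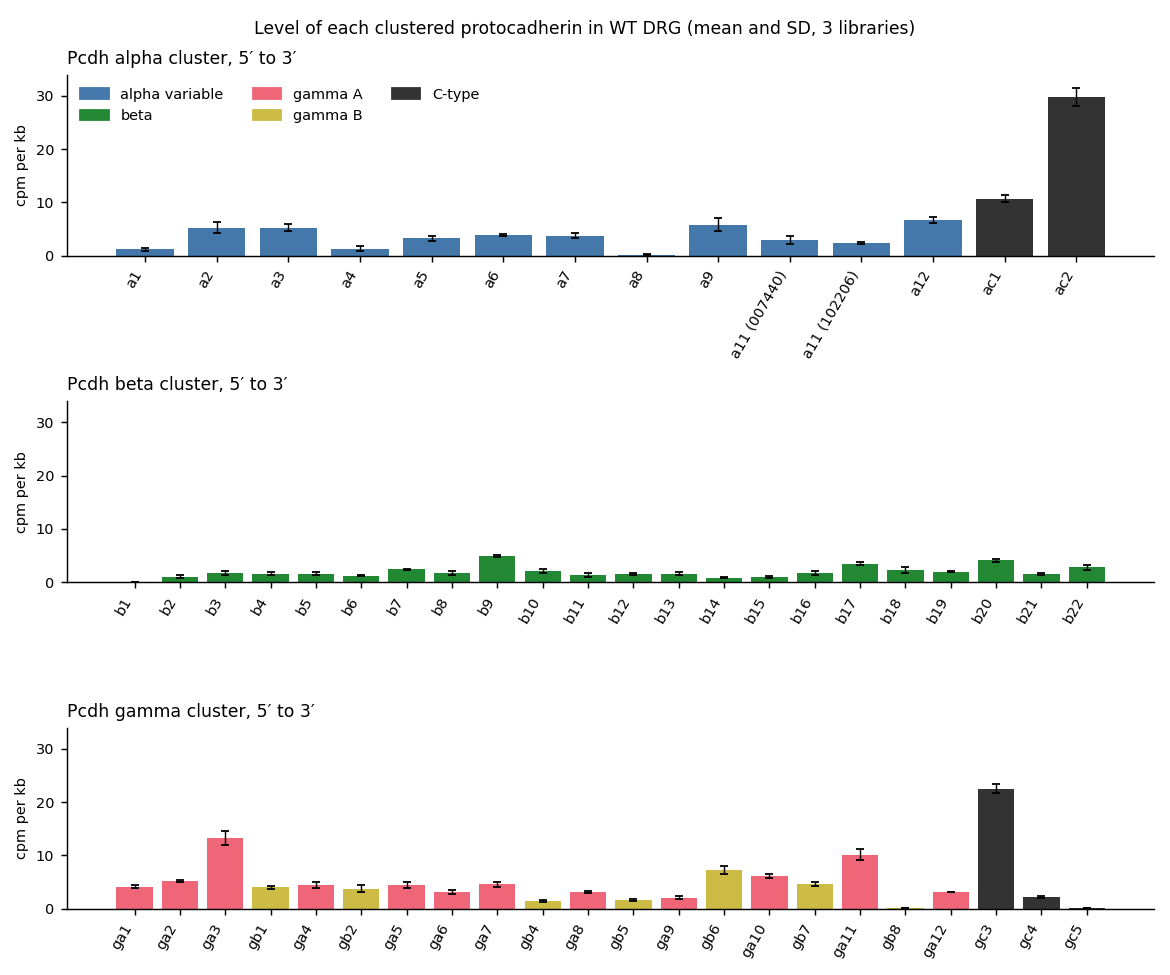
Level of each of the 58 clustered protocadherins in WT DRG, in cpm per kb of unshared exon, in 3 panels that follow the alpha, beta and gamma clusters from 5′ to 3′. Bars are the mean and error bars the SD of 3 libraries, and colours mark the class. Pcdhac2 (29.8) and Pcdhgc3 (22.6) stand above all variable isoforms, of which Pcdhga3 is the highest at 13.3, while Pcdhgc5, Pcdhgb8, Pcdha8 and Pcdhb1 are near 0.

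The variable isoforms were nearly all present, at levels that differed several-fold within each class. Pcdhga3 was the highest of them at 13.3 ± 1.33 cpm per kb, then Pcdhga11 at 10.2 ± 1.03 and Pcdhgb6 at 7.31 ± 0.754. The highest variable alpha isoforms were Pcdha12 at 6.72 ± 0.570, Pcdha9 at 5.83 ± 1.25 and Pcdha3 at 5.27 ± 0.650, and the highest beta genes were Pcdhb9 at 4.85 ± 0.195, Pcdhb20 at 4.13 ± 0.282 and Pcdhb17 at 3.51 ± 0.337. Next to Pcdhgb6, the gamma B isoforms were led by Pcdhgb7 at 4.72 ± 0.359 and Pcdhgb1 at 4.04 ± 0.286, and the third of the gamma A isoforms was Pcdhga10 at 6.14 ± 0.343. The median level was 4.48 cpm per kb for gamma A, 3.77 for gamma B, 3.49 for the variable alpha and 1.66 for the beta isoforms. These levels depend on the annotated exon length. Before division by length, Pcdhb22 (17.3 cpm in WT, 6154 bases) was above Pcdhb9 (14.8 cpm, 3055 bases). Between the highest and the lowest tested isoform of a class the ratio of WT levels was 5.73 for alpha, 5.58 for beta, 6.41 for gamma A and 5.01 for gamma B, against 13.3 for the C-type. Gamma B included Pcdhgb8, which the annotation lists as a polymorphic pseudogene and which had 7 to 16 counts.

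Most neighbours in the order of levels did not differ beyond the spread between WT libraries. Of 57 pairs of genes next to each other in that order, the values of the 3 WT libraries overlapped in 51. The 6 gaps without overlap were those below Pcdhac2, Pcdhgc3, Pcdhga3 and Pcdhga11 at the top, and those below Pcdhb14 and Pcdhgc5 at the bottom. The order was much the same in every genotype, with a rank correlation over the 58 genes of 0.987 between WT and Isl1Cre/+, 0.993 between WT and mutant and 0.987 between Isl1Cre/+ and mutant. For single libraries the coefficient was 0.965 to 0.981 in the 9 pairs of 1 genotype and 0.961 to 0.983 in the 27 pairs of different genotypes. These coefficients describe genes of the same libraries, which share length and mappability. Pcdhac2, Pcdhb9 and Pcdhgb6 were the highest of their class in all 9 libraries, Pcdhga3 in 8 and Pcdha12 in 6. With levels divided by all exonic bases, constant exons included, 7 of the 10 highest genes remained among the 10 highest.

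Position along a cluster went along with level only weakly. Across the 22 beta genes, the rank correlation between position from 5′ to 3′ and WT level was 0.403, with median levels of 1.61 cpm per kb in the first 11 and 1.79 in the last 11. It was 0.490 across the 14 genes of the alpha cluster, whose C-type isoforms are the last 2, and 0.189 across its 12 variable isoforms. Across the 22 gamma genes it was -0.224. Pcdhb1, the first beta gene, was read 3 times in all, once each in WT replicate 2, Isl1Cre/+ replicate 2 and mutant replicate 2, and so was at background.

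Isoforms differed in how steady they were between libraries of 1 genotype. The spread was measured as chi-square per degree of freedom, which is near 1 when counting error alone separates the libraries. Among genes with a mean of at least 100 and under 1000 counts, its median was 4.64 over all 6667 such genes, 6.15 over 9 variable alpha isoforms, 3.24 over 19 beta genes, 2.58 over 12 gamma A isoforms and 2.92 over 6 gamma B isoforms. The value was highest for Pcdha2 (20.5), Pcdha9 (19.7) and Pcdhga3 (13.8). For the same relative spread it grows with the count, so it does not rank members of different levels by how variable they are. Pcdhga10 (0.583) and Pcdhgb7 (0.890) varied no more than counting error allows.

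Single libraries stood out for some alpha isoforms. The 3 mutant libraries had 9.55, 10.6 and 18.02 cpm of Pcdha2, 2.29, 2.32 and 4.76 cpm of Pcdha1 and 7.52, 7.30 and 11.1 cpm of Pcdha7, so that replicate 3 was the highest for all of these. The same library was the lowest of the 3 for Pcdha11 (ENSMUSG00000102206.5), with 11.05, 10.95 and 7.39 cpm. Mutant replicate 2 was low for Pcdha9, with 14.6, 8.74 and 15.1 cpm. WT replicate 1 and mutant replicate 2 were each the lowest of the 9 libraries for 17 of the 52 tested members, and Isl1Cre/+ replicate 3 was the highest for 12. The same WT library had the highest summed sensory neuron markers, at 28720 cpm against 17660 to 22770 in the other 8. Most of this excess lay in the neurofilament genes Nefl (8108 cpm against 4423 to 5859) and Nefm (8539 against 3568 to 5393), while the neuronal RNA-binding protein gene Elavl4 was the lowest of the 9 libraries there at 308 cpm. The same mutant library had the highest red cell and muscle sums given above. The part of these in the levels of the isoforms was not tested.

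**Figure D2:**
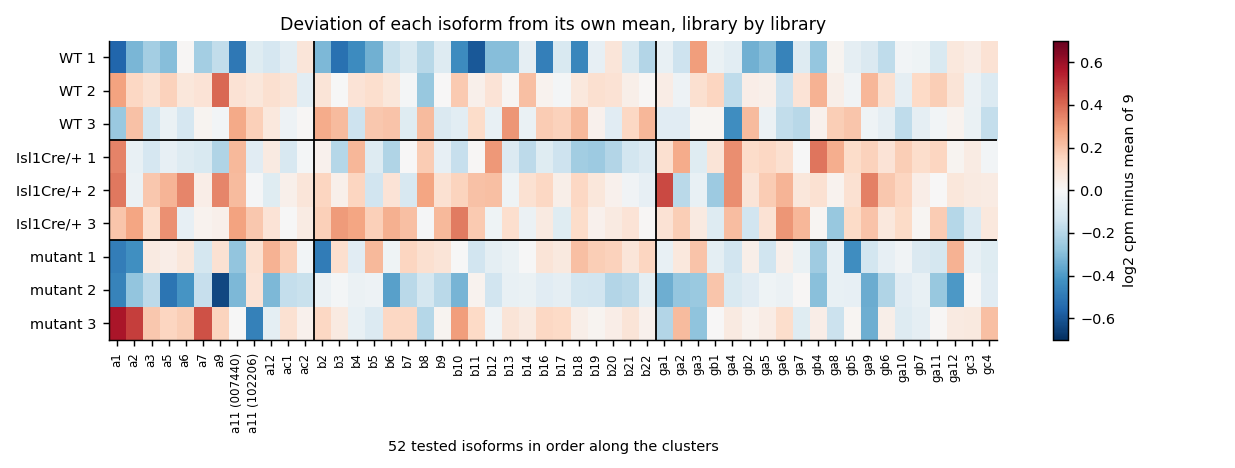
Deviation of the log2 cpm of each of the 52 tested isoforms (columns, in order along the clusters) from its mean over 9 libraries (rows), with red for higher and blue for lower. WT replicate 1 and mutant replicate 2 are blue across most of the alpha and beta clusters, and the 3 Isl1Cre/+ libraries are red across most of the gamma cluster up to its C-type isoforms.

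Summed over a class, the gamma A isoforms were the ones whose Isl1Cre/+ libraries lay outside the range of both other genotypes. The 3 WT libraries had 173, 183 and 168 cpm of gamma A isoforms, the Isl1Cre/+ libraries 190, 190 and 191 cpm and the mutant libraries 178, 154 and 169 cpm. The means were 175 ± 7.65, 190 ± 0.546 and 167 ± 12.1 cpm (SD, n = 3 each). The C-type sum was 202 ± 7.08 cpm in WT, 206 ± 6.07 in Isl1Cre/+ and 201 ± 10.7 in mutant libraries, the beta sum 178 ± 19.6, 184 ± 13.4 and 181 ± 13.5 cpm, and the variable alpha sum 104 ± 13.4, 110 ± 7.41 and 101 ± 15.5 cpm. Gamma B isoforms summed to 65.0 ± 5.74, 68.1 ± 2.94 and 62.4 ± 2.65 cpm in the same order. In these 4 classes the genotypes overlapped. As shares of all clustered protocadherin counts, C-type isoforms held 28.0% ± 2.31 in WT, 27.2% ± 0.731 in Isl1Cre/+ and 28.3% ± 0.762 in mutant libraries, and gamma A isoforms held 24.2% ± 1.14, 25.1% ± 0.689 and 23.5% ± 0.837.

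**Figure D3:**
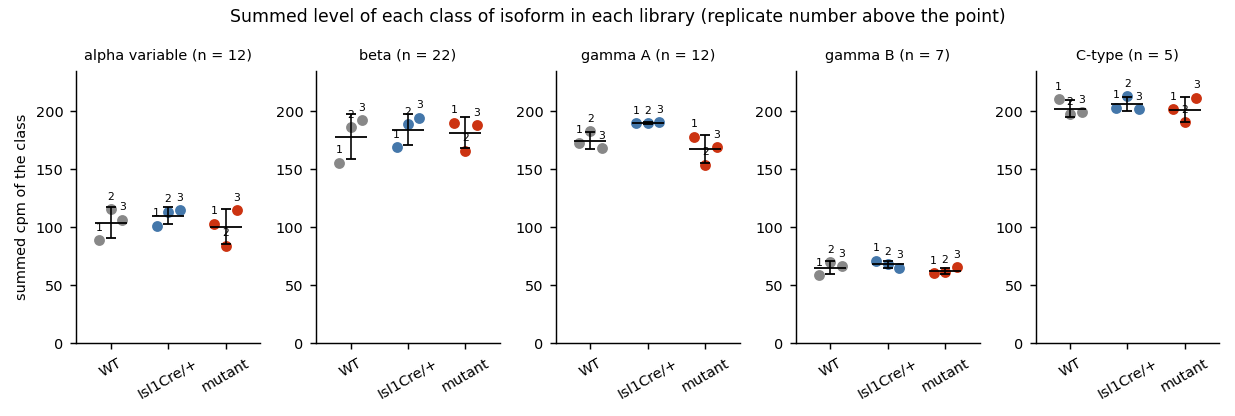
Summed cpm of each class of isoform in each library, in 5 panels, with WT, Isl1Cre/+ and mutant on the horizontal axis. Points are libraries with the replicate number above them, long dashes are means and bars the SD of 3 libraries. The gamma A points of Isl1Cre/+ sit at 190 to 191 cpm, above 168 to 183 in WT and 154 to 178 in mutant libraries.

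Of the 58 genes, 52 had at least 100 counts in at least 1 library and were tested. Of these, 51 reached 100 counts in every genotype, and Pcdhb2 was let in by a single WT library with exactly 100 counts. Pcdhb15, with at most 91 counts, was the nearest to the limit among the 6 not tested, which also included Pcdha4, Pcdha8 (9 to 40 counts), Pcdhb1, Pcdhgb8 and Pcdhgc5. Each pair of genotypes was compared with the quasi-likelihood test of edgeR. A gene met the study's criterion when its fold change was at least 1.2 in either direction and its unadjusted p was under 0.05. No clustered protocadherin had an adjusted p under 0.05 in any comparison, and the lowest adjusted p was 0.9999, 0.9997 and 0.9999 in mutant vs WT, mutant vs Isl1Cre/+ and Isl1Cre/+ vs WT. Of all tested genes, 0.00758%, 0.00758% and 0.0% had one, the single gene in both mutant comparisons being Meis2. Labels do not say whether libraries came from separate litters, so p measures only the spread between these libraries.

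Mutant and WT ganglia differ in Meis2, in 1 copy of Isl1, in Cre and in the sexes of the embryos. Between them, no clustered protocadherin met the criterion. The share of all 13200 tested genes that met it was 0.318%. Of the 52 members 27 were lower and 25 higher in the mutant (53.8% of all tested genes were lower), with a median log2 fold change of -0.00 and a range from -0.31 to 0.29, beside a median of -0.01 over all tested genes. None of the 52 had an unadjusted p under 0.05 with edgeR, beside 0.371% of all tested genes. None met the criterion with DESeq2 or limma, but 2 did with all 3 genotypes in 1 edgeR fit. It was also met by 2 without WT replicate 1 and by 1 without mutant replicate 1. Without WT replicate 1 the median was -0.07 with 40 lower, and without mutant replicate 2 it was 0.08. The sign of a median this near 0 was also positive under other choices, among them DESeq2 size factors (0.009) and leaving out WT replicate 2 (0.031). The members farthest from 0 in their class were Pcdhga9 (-0.31 ± 0.15, SE), Pcdhgb5 (-0.19 ± 0.17), Pcdha11 (ENSMUSG00000007440.10) (-0.19 ± 0.22), Pcdhb2 (-0.14 ± 0.26) and Pcdhgc4 (0.07 ± 0.15). Leaving out 1 library moved some of these, Pcdha11 (ENSMUSG00000007440.10) to -0.38 without WT replicate 1 and -0.03 without WT replicate 3, and Pcdhgb5 to -0.06 without mutant replicate 1. Pcdhga9 met the criterion in 2 of 16 alternatives, the fit of all 3 genotypes and that without WT replicate 1. The SE of Pcdhac2 was 0.09 and its log2 fold change -0.05, and that of Pcdhgc3 was 0.08 with 0.02. Groups did not overlap for 3 members, of which Pcdhga6 was higher and Pcdhga8 and Pcdhga9 were lower in the mutant. Over all tested genes, groups did not overlap for 2.76%.

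The mutant and Isl1Cre/+ ganglia differ in the Meis2 alleles and in the sexes of the embryos. Between them, 5 clustered protocadherins met the criterion, all lower in the mutant. Of all tested genes, 0.265% met it in that direction, and 221 of 13200 in either direction. They were 3 of the 12 gamma A isoforms (Pcdhga1, Pcdhga4 and Pcdhga9), 1 of 10 tested alpha isoforms (Pcdha11 (ENSMUSG00000007440.10)) and 1 of 20 tested beta genes (Pcdhb4). No C-type or gamma B isoform met it. Unadjusted p was under 0.05 for 7 members, the others being Pcdhga10 and Pcdhga11, beside 2.73% of all tested genes.

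Pcdhga9 had 7.86, 8.97 and 8.08 cpm in the Isl1Cre/+ libraries and 6.43, 5.51 and 5.54 cpm in the mutant libraries. The groups did not overlap, and the log2 fold change was -0.51 ± 0.12 (SE, unadjusted p = 0.00313). WT libraries had 6.55, 8.25 and 6.88 cpm, all above the mutant libraries. Pcdhga1, the first gene of the gamma cluster, had 14.8, 19.0 and 14.8 cpm in Isl1Cre/+ and 13.3, 10.8 and 11.9 cpm in mutant libraries, with a log2 fold change of -0.43 ± 0.13 (unadjusted p = 0.0122). Its Isl1Cre/+ mean was raised by replicate 2, while WT libraries had 13.3, 14.3 and 13.0 cpm.

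Pcdha11 (ENSMUSG00000007440.10) had 8.55, 8.51 and 8.86 cpm in Isl1Cre/+ and 6.01, 5.85 and 7.26 cpm in the mutant, which gave a log2 fold change of -0.44 ± 0.12 (unadjusted p = 0.00696). The WT libraries, at 5.16, 7.82 and 8.76 cpm, overlapped both. Pcdhb4 had 7.80, 7.36 and 8.04 cpm in Isl1Cre/+ and 6.28, 6.46 and 6.40 cpm in mutant libraries, with a log2 fold change of -0.28 ± 0.10 (unadjusted p = 0.0267). Here too the WT libraries, at 4.89, 7.08 and 6.01 cpm, lay on both sides of the mutant values. Pcdhb4 met the criterion in 6 of 15 alternative analyses, whereas Pcdha11 (ENSMUSG00000007440.10), Pcdhga1, Pcdhga4 and Pcdhga9 met it in 15 of 15.

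By class, 11 of 12 gamma A isoforms, 5 of 6 gamma B, 9 of 10 alpha, 10 of 20 beta and 3 of 4 tested C-type isoforms were lower in the mutant than in Isl1Cre/+, and so were 49.8% of all tested genes. The median log2 fold change was -0.18 for gamma A, -0.16 for gamma B, -0.11 for the variable alpha, 0.00 for beta and -0.01 for the C-type isoforms, and -0.10 over all 52, beside 0.00 over all tested genes. Without mutant replicate 2, the median of the 52 was 0.01 with 24 lower, that of alpha 0.04 with 4 of 10 lower and that of beta 0.05, while that of gamma A was -0.16 with 9 of 12 lower and 3 still meeting the criterion. Groups did not overlap for 10 members, all lower in the mutant, of which 5 were gamma A and 3 gamma B isoforms. Over all tested genes, 4.2% were lower without overlap, and 456 of 13200 were higher without overlap. Among the C-type isoforms, Pcdhac2 was the farthest from 0 at -0.09 ± 0.07 (SE), then Pcdhac1 at 0.06 ± 0.10, Pcdhgc4 at -0.02 ± 0.12 and Pcdhgc3 at -0.00 ± 0.07. In gamma B, Pcdhgb4 was the farthest at -0.33 ± 0.16 and did not meet the criterion. It met it in 2 of 15 alternatives, with no filter on low counts and without mutant replicate 3.

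**Figure D4:**
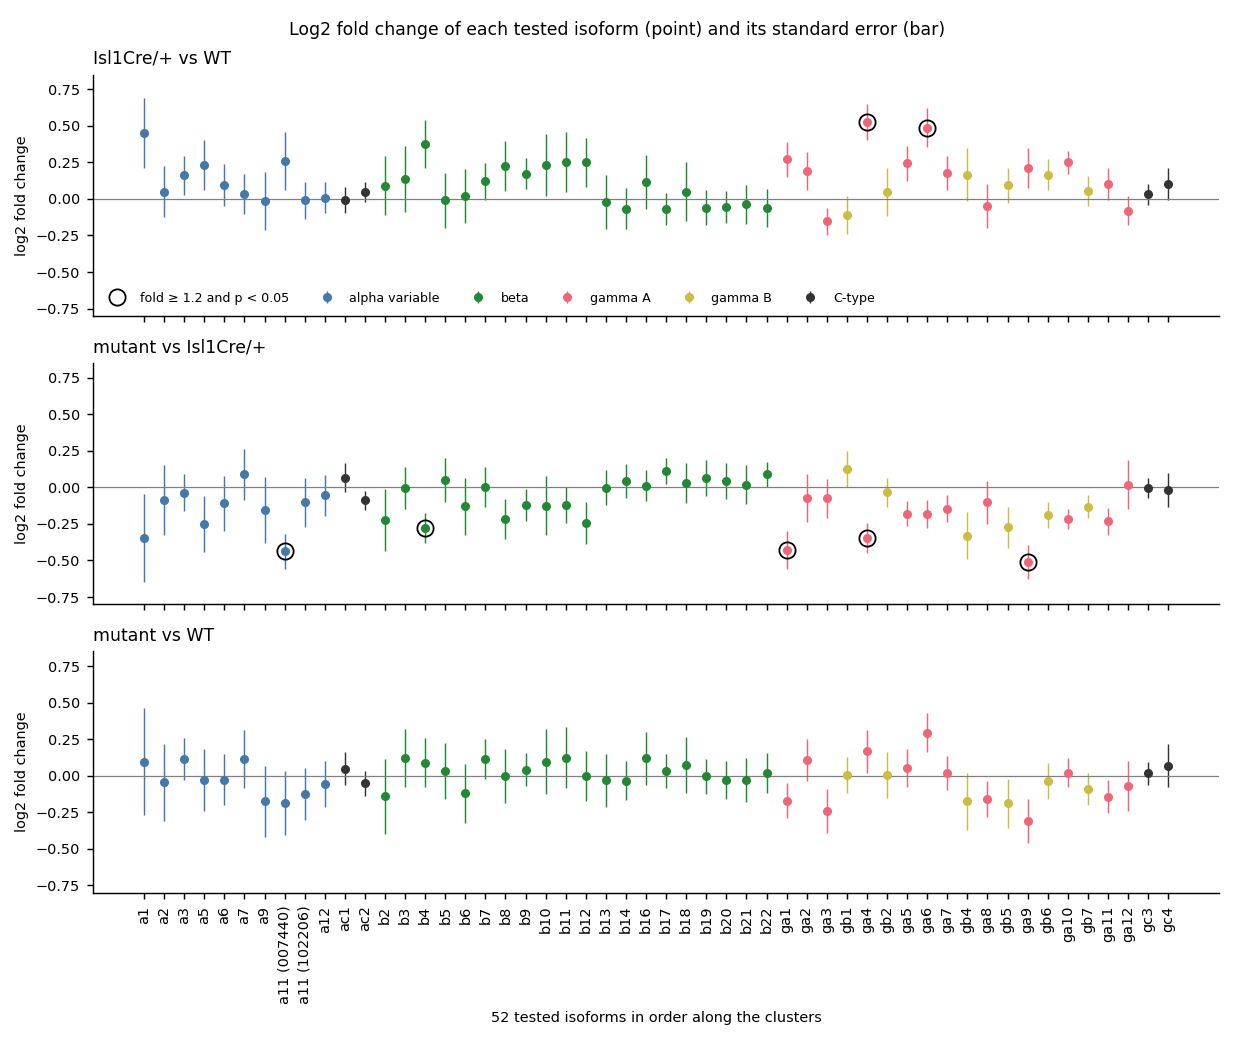
Log2 fold change (points) and its standard error (bars) of the 52 tested isoforms in order along the alpha, beta and gamma clusters, in 3 panels for Isl1Cre/+ vs WT, mutant vs Isl1Cre/+ and mutant vs WT. Colours mark the class, and black circles mark the 2, 5 and 0 isoforms that met the criterion. C-type isoforms lie between -0.09 and 0.10 in all panels, and 9 of the first 10 tested beta genes lie above 0 in the first panel and 8 below it in the second.

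Between Isl1Cre/+ and WT ganglia, which differ in 1 copy of Isl1, in Cre and in the sexes of the embryos, 2 clustered protocadherins met the criterion, both gamma A isoforms and both higher in Isl1Cre/+. Of all tested genes, 0.258% met it in that direction, and 185 of 13200 in either direction. Pcdhga4 had 7.72, 7.19 and 6.01 cpm in WT and 10.2, 10.2 and 9.46 cpm in Isl1Cre/+ libraries, with a log2 fold change of 0.52 ± 0.12 (SE, unadjusted p = 0.00313). In the mutant it had 7.41, 7.56 and 8.50 cpm, between the other genotypes with some overlap with WT, and its log2 fold change against Isl1Cre/+ was -0.35 ± 0.10 (unadjusted p = 0.00949). Pcdhga6 had 7.23, 9.06 and 8.90 cpm in WT, 10.8, 11.8 and 12.4 cpm in Isl1Cre/+ and 10.3, 9.73 and 10.9 cpm in the mutant. The log2 fold change of Pcdhga6 was 0.49 ± 0.13 between Isl1Cre/+ and WT (unadjusted p = 0.00766) and 0.29 ± 0.13 between mutant and WT (unadjusted p = 0.0624). All 3 mutant values of Pcdhga6 were above all WT values.

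Pcdhga10 was the third member with an unadjusted p under 0.05 in Isl1Cre/+ vs WT, beside 1.79% of all tested genes. It had 16.8, 16.3 and 15.04 cpm in WT, 19.2, 18.9 and 18.7 cpm in Isl1Cre/+ and 16.7, 16.1 and 15.97 cpm in mutant libraries. The fold change of 1.19 between Isl1Cre/+ and WT was just under the limit. Pcdhb4 had the largest difference among beta genes at 0.38 ± 0.16 (SE), and Pcdha1 among alpha isoforms at 0.45 ± 0.24. Pcdhgb6, at 0.17 ± 0.10, and Pcdhgc4, at 0.10 ± 0.11, were the farthest from 0 in their classes. None of these 4 met the criterion, although Pcdhb4 met it in 5 of 15 alternatives, limma voom and the fit of all 3 genotypes among them. The values moved with the WT libraries. Without WT replicate 1 and without WT replicate 2 respectively, the log2 fold change was 0.23 and 0.52 for Pcdhb4, 0.26 and 0.72 for Pcdha1 and 0.08 and 0.26 for Pcdhgb6. That of Pcdhgc4 was 0.16 without WT replicate 1 and 0.05 without WT replicate 3.

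Of the 52 members, 37 were higher and 15 lower in Isl1Cre/+ than in WT, while 50.7% of all tested genes were lower. The median log2 fold change was 0.09, beside -0.00 over all tested genes. The class medians were 0.20 for gamma A, 0.07 for gamma B, 0.07 for the variable alpha, 0.07 for beta and 0.04 for the C-type isoforms. Without WT replicate 1, the median of the 52 was 0.02 with 24 lower, that of alpha -0.015 and that of beta -0.07, while that of gamma A was 0.13 with 3 of 12 lower and 2 still meeting the criterion. Groups did not overlap for 6 members, all higher in Isl1Cre/+ and 5 of them gamma A isoforms, the other being Pcdhb4. Over all tested genes, 2.95% were higher without overlap, and 358 of 13200 were lower without overlap. This comparison and that of mutant with Isl1Cre/+ use the same 3 Isl1Cre/+ libraries, so a member that is high in these libraries is moved in both.

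**Figure D5:**
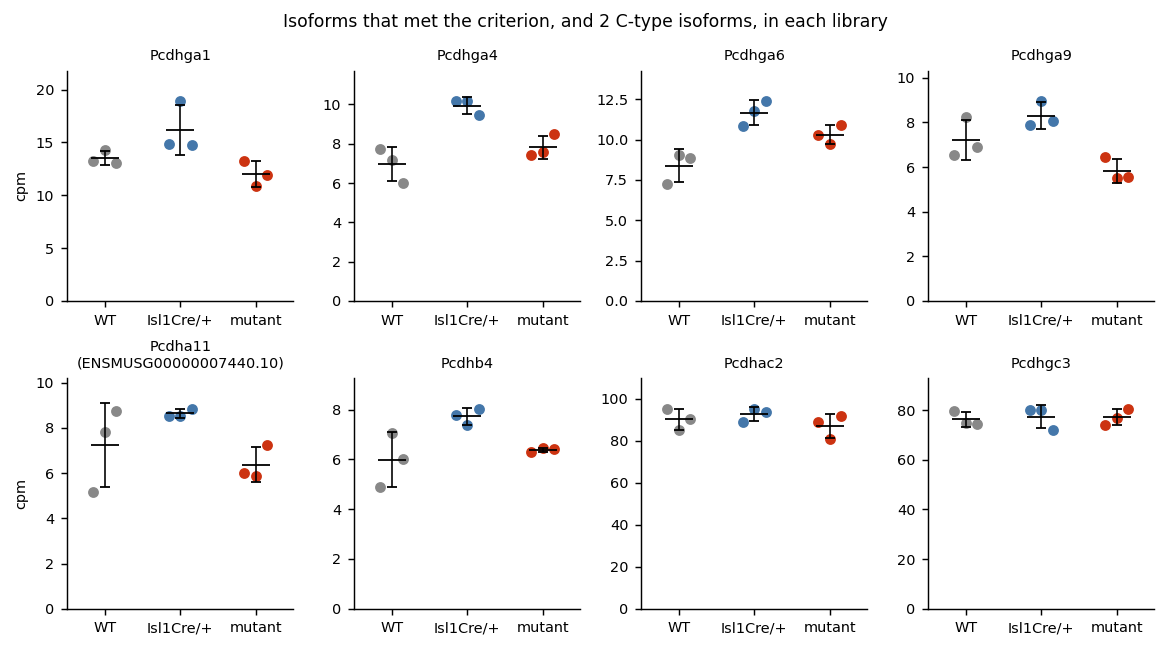
Level in cpm, from 0, of the 6 isoforms that met the criterion in any comparison and of the C-type isoforms Pcdhac2 and Pcdhgc3. Points are the 3 libraries of WT, Isl1Cre/+ and mutant, dashes are means and bars the SD. Pcdhga4 is at 9.46 to 10.2 cpm in Isl1Cre/+ against 6.01 to 7.72 in WT, and the 3 genotypes overlap for Pcdhac2 and Pcdhgc3.

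Within the beta cluster, the differences that involve Isl1Cre/+ went along with position. Across the 20 tested beta genes, the rank correlation of log2 fold change with position was -0.589 for Isl1Cre/+ vs WT, 0.660 for mutant vs Isl1Cre/+ and -0.162 for mutant vs WT. The first 10 tested genes, Pcdhb2 to Pcdhb11, had a median log2 fold change of 0.15 in Isl1Cre/+ vs WT and -0.12 in mutant vs Isl1Cre/+, and the last 10, Pcdhb12 to Pcdhb22 without Pcdhb15, had -0.05 and 0.03. Without WT replicate 1 the medians in Isl1Cre/+ vs WT were 0.05 and -0.13, and without mutant replicate 2 those in mutant vs Isl1Cre/+ were -0.01 and 0.11. These coefficients are descriptions over genes of the same libraries, and the first and second comparison share the Isl1Cre/+ libraries. In the alpha cluster the coefficients were -0.601, 0.245 and -0.448 over 12 tested genes, and in the gamma cluster -0.224, 0.138 and -0.0526 over 20.

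Genes known to act in the choice of protocadherin promoters were examined from a list of 19. Of these, 18 were tested. They included Ctcf, the cohesin subunits Rad21, Smc1a and Smc3, the cohesin loader Nipbl and the releasing factor Wapl. The DNA methyltransferase genes Dnmt1 and Dnmt3a and Smchd1, which represses the clusters, were also tested, while Dnmt3b on the list was not. The criterion was met by 0 in mutant vs WT and by 0 in mutant vs Isl1Cre/+ with edgeR, and 0 had an unadjusted p under 0.05. With 0.318% of all tested genes meeting it in the first comparison, and 221 of 13200 in either direction in the second, a count of 0 among 18 is near the background. An unadjusted p under 0.05 was found for 0.371% and 2.73% of all tested genes. Median log2 fold changes were -0.02, -0.03 and, in Isl1Cre/+ vs WT, 0.02, beside -0.01, 0.00 and -0.00 over all tested genes. In Isl1Cre/+ vs WT 1 of 18 met it as higher, beside 0.258% of all tested genes in that direction and 185 of 13200 in either. This was the X-linked histone demethylase gene Kdm5c, named after its values were seen. Kdm5c was at 73.1 ± 10.7 cpm in WT, 90.8 ± 5.10 in Isl1Cre/+ and 80.6 ± 14.0 in mutant libraries (SD, n = 3 each), with a log2 fold change of 0.32 ± 0.11 (SE, adjusted p = 0.9999). Kdm5c is known to escape X inactivation, and the sex difference between the groups given above applies to it.

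The genes for partners of the proteins that are reported here were Ret, the kinase genes Ptk2 and Ptk2b, which clustered protocadherins bind and inhibit, the WAVE complex genes Wasf1, Cyfip1, Cyfip2, Nckap1, Abi1, Abi2 and Brk1, the protease gene Adam10, Psen2, Ncstn, Nlgn1, Axin1, Celsr3 and Fzd3. All 17 were tested, and 0 met the criterion in any of the 3 comparisons with edgeR. An unadjusted p under 0.05 was found for 0, beside 0.371%, 2.73% and 1.79% of all tested genes in mutant vs WT, mutant vs Isl1Cre/+ and Isl1Cre/+ vs WT, so these counts are near the background. Their median log2 fold change was 0.03 in mutant vs WT, -0.07 in mutant vs Isl1Cre/+ and 0.06 in Isl1Cre/+ vs WT, with ranges of -0.16 to 0.26, -0.15 to 0.06 and -0.03 to 0.21.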

How the data were processed

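Single-end reads of poly(A) RNA were aligned by the authors to mm10 (GRCm38) with STAR 2.7.10, cleared of duplicates by molecular identifiers and counted per gene with HTSeq 0.6, and the deposited counts are these values without normalization. The annotation release and strand option are not given in the sources used here. The deposited log2 fold changes and mean log2 expression, p-values and scores (moderated statistic and log odds) are the authors' limma comparisons and were not used. Of 55247 identifiers, 54855 matched GENCODE M21 in identifier and version. Exons, shared bases and overlaps come from that annotation, and the RefSeq symbol from the table of GRCm38.p6.

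The tested genes were those that reached 100 counts in any of the 9 libraries (13200, holding 99.4% to 99.5% of counts). Each pair of genotypes was fitted alone with edgeR 4.0.16 in R 4.3.3 (TMM, two-sided quasi-likelihood test, Benjamini-Hochberg adjustment over all tested genes), and the procedure was tested on simulated data. Levels are cpm on TMM-scaled library sizes. Between libraries of a genotype the chi-square per degree of freedom over genes was 12.6 to 129, so none were duplicates. Groups were taken from the labelled genotype. The genes, lists and tests were chosen with earlier results of these data known. Named were all C-type isoforms, the 3 highest per class in WT, every member that met the criterion, and the member of each class with the largest absolute log2 fold change in each comparison. Alternatives were DESeq2 size factors, library size only, other filters, DESeq2 1.42.0, limma 3.58.1 voom, all genotypes in 1 fit, a replicate block, libraries left out and other criteria. Medians of classes without single libraries were added after seeing the data. A gene of the partner list is not reported here. No sequence was used.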

Additional observations from a re-analysis of the deposited data

How the results depend on the processing

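For mutant vs WT, the count of members meeting the criterion was 0, but 1 with no filter on low counts (Pcdha4), 2 with all 3 genotypes in 1 fit (Pcdhga6 and Pcdhga9), and 0 to 2 with 1 library left out, the 2 (Pcdha11 (ENSMUSG00000007440.10) and Pcdhga9) without WT replicate 1 and 1 (Pcdhga3) without mutant replicate 1. For mutant vs Isl1Cre/+ it was 5, 0 at a fold change of at least 1.5, and 4 to 8 with 1 library left out, the 8 without mutant replicate 3. For Isl1Cre/+ vs WT it was 2, 0 at a fold change of at least 1.5, 4 with no filter, and 2 to 6 with 1 library left out, the 6 without WT replicate 2. The cause was not tested. The median log2 fold change of the tested members ranged over the left-out libraries from -0.072 to 0.08 (mutant vs WT), -0.135 to 0.008 (mutant vs Isl1Cre/+, the latter without mutant replicate 2) and 0.021 to 0.145 (Isl1Cre/+ vs WT), against an SD of 0.089 between library medians within genotypes. Of 273 alternative values of the 18 log2 fold changes examined, 271 kept their sign, the exceptions in mutant vs WT being Pcdhb2 at 0.02 without mutant replicate 1 (range -0.28 to 0.02 with 1 library left out) and Pcdhgc4 at -0.03 without mutant replicate 3 (range -0.03 to 0.15). Same-numbered libraries did not deviate together over all tested genes (correlations from -0.553 to 0.386), so numbers do not pair them. With the replicate block, 0, 4 and 2 members met the criterion in the 3 comparisons. Low isoforms such as Pcdhgc5, Pcdha8 and Pcdhgb8 were limited by depth. In both comparisons with Isl1Cre/+, Pcdha8 met the criterion in the 2 alternatives with a lower filter or none.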

Other observations

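Protocadherins that lie outside the clusters were examined from a list of 12 genes (Pcdh1, Pcdh7, Pcdh8, Pcdh9, Pcdh10, Pcdh11x, Pcdh12, Pcdh15, Pcdh17, Pcdh18, Pcdh19 and Pcdh20), of which 11 were tested. In mutant vs WT 8 of 11 were lower, beside 53.8% of all tested genes, with a median log2 fold change of -0.11 beside -0.01 over all tested genes. The criterion was met by 1, beside 0.318% of all tested genes. This was the X-linked Pcdh11x, named after its values were seen, with 23.1 ± 0.754 cpm in WT, 18.2 ± 4.21 in Isl1Cre/+ and 17.1 ± 1.89 in mutant libraries (SD, n = 3 each) and a log2 fold change of -0.43 ± 0.11 (SE, edgeR adjusted p = 0.9999). The sex difference between WT and mutant libraries given above applies to Pcdh11x, and its part was not tested. In mutant vs Isl1Cre/+ and Isl1Cre/+ vs WT none of the 11 had an unadjusted p under 0.05 with edgeR, and the medians were -0.09 and 0.03. In mutant vs Isl1Cre/+ 9 of 11 were lower, beside 49.8% of all tested genes and 38 of the 52 tested clustered protocadherins.

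Between the beta and gamma clusters lies Taf7, on the reverse strand, which codes for a subunit of the general transcription factor TFIID. It had 33.0 ± 3.74 cpm in WT, 29.0 ± 0.556 in Isl1Cre/+ and 30.8 ± 2.001 in mutant libraries (SD, n = 3 each). The antisense gene Gm26672, which lies opposite Pcdhga10, Pcdhga11, Pcdhga12 and Pcdhgb7, had counts of 55, 57 and 74 (WT), 39, 43 and 50 (Isl1Cre/+) and 43, 39 and 60 (mutant), under the limit for testing. The antisense gene BC037039 opposite Pcdhgc3 had counts of 34, 29 and 35 (WT), 23, 21 and 21 (Isl1Cre/+) and 20, 16 and 26 (mutant).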
